A study of Mus musculus with 6 samples.

Results

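Histone lysine methyltransferases, the writers, add methyl groups to lysines in the tails and cores of histones, and histone lysine demethylases, the erasers, remove them. The mRNAs of 38 such genes, 17 erasers and 21 writers, were followed among the 37620 genes counted in mature brown fat, the layer of heat-producing fat cells that rises to the top once the tissue has been digested with collagenase. The genes were chosen by symbol as enzyme families, with the measured KO against WT differences of the same libraries already known. Each difference between the groups is therefore a description of these 6 libraries, and its p-value is no independent evidence about the families. Brown fat of mice labelled PHOSPHO1 knockout (KO, 3 libraries) was compared with that of wild-type mice (WT, 3 libraries). Both groups were on a C57BL/6 background and 6 weeks old, and each library pooled 3 mice. PHOSPHO1 is a phosphatase of phosphocholine and phosphoethanolamine. The labels name neither the allele, nor the tissues that lack the gene, nor the sex of the mice.

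Methylation of lysines 4 and 36 of histone H3 (H3K4, H3K36) is found at active genes, and that of lysines 9 and 27 (H3K9, H3K27) at silent ones. Writers take the methyl group from S-adenosylmethionine, nearly always through a SET domain. Most erasers carry a JmjC domain that needs iron, oxygen and 2-oxoglutarate, whereas Kdm1a and Kdm1b are amine oxidases that use FAD, so both families depend on metabolites of the cell. In mouse brown fat, Ehmt1 is known as a partner of PRDM16 in setting brown identity, Kdm1a as a support of the thermogenic program, and Kdm3a as an eraser needed for the response of Ucp1 to beta-adrenergic signals.

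The libraries held 10576800 to 14239307 counts, of which genes of the mitochondrial genome took 39.1% to 56.5%. All 38 genes passed the filter on low counts, with 4 to 956 counts per gene and library, and together they held 2480 to 8788 counts per library. Levels are CPM, counts scaled to a common library size after TMM normalization. Summed CPM of 10 brown adipocyte markers was 24064 to 32640 in KO-labelled libraries and 19712 to 28187 in WT libraries, and all 10 were detected. Fabp4 alone averaged 14995 CPM in KO-labelled libraries and 14936 CPM in WT libraries. Of the 10 markers, 7 had a positive log2 fold change and 3 a negative one, with a median of 0.18. Cox7a1 (1.02) was called higher, and Ucp1 (0.66) and Cox8b (0.92) were not called. Markers of other cell types were also present. Summed CPM of 9 macrophage and leukocyte markers was 215 to 483 in KO-labelled libraries and 95.6 to 189 in WT libraries, but without Lyz2, called higher, the other 8 summed to 17.5 to 27.2 CPM in KO-labelled libraries and 22.6 to 30.5 CPM in WT libraries. Of the 7 tested markers in that list 4 had a negative log2 fold change, among them Cd163 (-2.44, called lower) and Mrc1 (-0.92, adjusted p = 0.052). The sum of 7 erythroid markers was 1210 to 3506 CPM in KO-labelled libraries and 366 to 1378 CPM in WT libraries, with 5 tested, all 5 positive and 2 called higher. The sum of 9 endothelial markers was 540 to 571 CPM in KO-labelled libraries and 456 to 669 CPM in WT libraries, and its members differed in sign: Flt1 (-1.24), Tek (-1.21) and Ptprb (-1.52) were called lower, Cldn5 was at 1.07 (adjusted p = 0.076), and the median of the 9 was -0.55. For 9 stromal and mural markers the range was 1133 to 1438 in KO-labelled libraries and 1452 to 1760 in WT libraries, but without Rgs5, the marker with the largest difference in CPM, it was 742 to 887 in KO-labelled libraries and 615 to 738 in WT libraries, and Acta2 was called higher (0.99). Lyz2 and Rgs5 were left out after their values were seen. Skeletal muscle markers, also 9, summed to 28.4 to 85.2 CPM in KO-labelled libraries and 28.3 to 875 CPM in WT libraries, with the highest value in WT 3. No marker was at 0 in all libraries, but Myh1, Myh2 and Actn3 were at 0 in KO 1. In bulk RNA, fewer cells of a type and less RNA per cell cannot be told apart, and the part of these shifts in the results on histone enzymes was not tested. Phospho1 itself held 18, 15 and 17 counts in KO-labelled libraries and 13, 5 and 5 in WT libraries (log2 fold change 1.53, SE 0.46, edgeR adjusted p = 0.056), so it did not check the labels. Of its annotated exonic bases, 89.6% lie within Zfp652 on the same strand and 84.2% within Abi3 on the opposite strand, so its reads are uncertain.

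Among the 38 genes, 7 fell in KO-labelled libraries at an adjusted p under 0.05 in edgeR's quasi-likelihood test with Benjamini-Hochberg adjustment over 12068 genes. They were the erasers Kdm7a, Kdm4c, Kdm3a and Kdm1b and the writers Nsd2, Setd7 and Ezh2. At this threshold 7.52% of all tested genes were called lower, 1.63% higher and 9.16% in either direction. No eraser or writer was called higher in edgeR, DESeq2 or limma-voom, and in edgeR none was higher at an unadjusted p under 0.05. At an unadjusted p under 0.05, 8 erasers and 7 writers were lower, against 18.6% of all tested genes. The log2 fold change was below 0 for 15 of 17 erasers and 17 of 21 writers, and for 48.6% of all tested genes. Its median was -0.62 for erasers, -0.49 for writers and 0.03 for all tested genes. All KO-labelled libraries lay below all WT libraries for 9 erasers and 5 writers, a pattern seen in 19.6% of all tested genes. The opposite pattern occurred in none of the 38 genes and in 15.8% of all tested genes.

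The number of called enzymes changed with the library left out. It was 0 without WT 1 (11 lower at an unadjusted p under 0.05), 14 without WT 2, 2 without WT 3, 6 without KO 1, 2 without KO 2 and 0 without KO 3 (14 lower at an unadjusted p under 0.05). The share of all tested genes called lower changed too: it was 11.2% without WT 2 (1383 of 12323 genes), 2.95% without WT 3, 8.02% without KO 1 and 2.07% without KO 2, and no gene was called lower by edgeR without WT 1 or without KO 3, where 2251 and 2672 genes had an unadjusted p under 0.05 in either direction. Over the whole table, total-count scaling put the median of all tested genes at -0.23 on the log2 scale and called 1389 genes lower and 29 higher, against 908 and 197 with TMM.

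**Figure D1:**
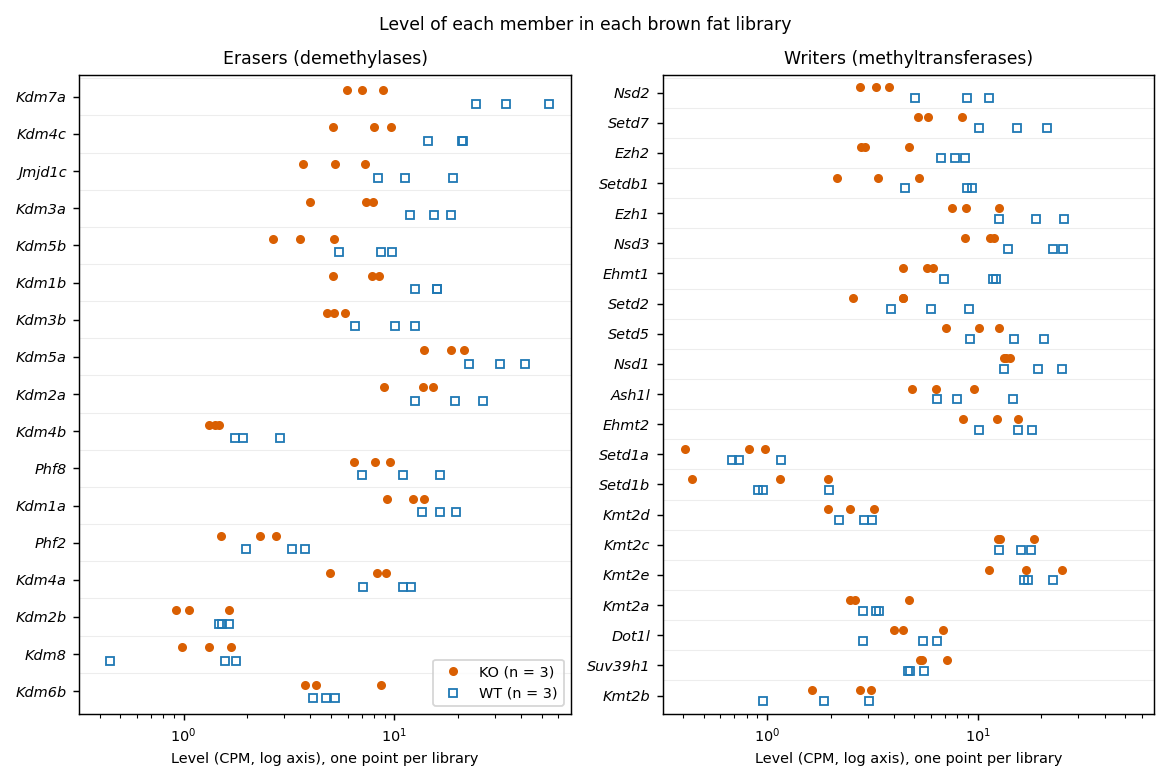
Level of each of the 17 erasers and 21 writers in each library, in CPM on a log axis, with KO-labelled libraries as filled circles and WT libraries as open squares; genes run from the lowest to the highest log2 fold change. Kdm7a at the top left sits at 5.99 to 8.88 CPM in KO-labelled libraries and at 24.5 to 53.9 CPM in WT libraries, whereas most genes in the lower rows of both panels overlap.

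Sequence upstream of the start sites was compared because it was not used in choosing the genes. RefSeq promoter windows on GRCm38.p6 were used for 26 of the 38 genes, 12 erasers and 14 writers, and none for Kdm2a, Kdm3b, Kdm4b, Kdm5a, Kdm6b, Kmt2b, Kmt2e, Setd1b, Nsd1, Nsd2, Nsd3 and Ash1l. Each window was cut to the 250 bases before the annotated start. Where a gene had several windows, only the first listed was used, also for all genes. Kdm2b had 4 windows, Kdm3a had 3, and Kdm4c, Jmjd1c, Ehmt2 and Suv39h1 had 2 each. Motif letters were searched on both strands, overlapping matches included. Shown are Kdm7a, which had the lowest log2 fold change, the paralogs Ezh1 and Ezh2, and Kmt2c, a long H3K4 writer whose level did not pass the test. Capitals mark matches to the SP letters GGGCGG, the ETS letters CCGGAAG, the NRF1 letters (GCGCA and GCGC with any 1 base between them) and the CCAAT box, or to their reverse complements.
Kdm7a, chr6:39206774-39207023, minus strand: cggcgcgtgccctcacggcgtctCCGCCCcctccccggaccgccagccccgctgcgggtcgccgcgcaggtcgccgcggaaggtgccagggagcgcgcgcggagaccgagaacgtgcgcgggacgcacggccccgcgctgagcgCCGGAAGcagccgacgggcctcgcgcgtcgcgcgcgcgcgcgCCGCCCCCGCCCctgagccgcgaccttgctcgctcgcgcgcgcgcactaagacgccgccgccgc
Ezh1, chr11:101226464-101226713, minus strand: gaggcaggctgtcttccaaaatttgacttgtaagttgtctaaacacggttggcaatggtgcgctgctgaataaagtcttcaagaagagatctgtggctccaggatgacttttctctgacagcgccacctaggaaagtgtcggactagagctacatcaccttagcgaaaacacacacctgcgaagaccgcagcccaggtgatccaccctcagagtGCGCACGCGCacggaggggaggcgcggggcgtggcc
Ezh2, chr6:47595031-47595280, minus strand: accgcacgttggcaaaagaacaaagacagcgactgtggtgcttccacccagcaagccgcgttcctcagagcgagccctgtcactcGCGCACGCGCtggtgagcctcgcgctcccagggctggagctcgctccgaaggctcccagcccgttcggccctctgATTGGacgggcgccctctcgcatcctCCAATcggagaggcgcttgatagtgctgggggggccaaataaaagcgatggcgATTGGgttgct
Kmt2c, chr5:25498784-25499033, minus strand: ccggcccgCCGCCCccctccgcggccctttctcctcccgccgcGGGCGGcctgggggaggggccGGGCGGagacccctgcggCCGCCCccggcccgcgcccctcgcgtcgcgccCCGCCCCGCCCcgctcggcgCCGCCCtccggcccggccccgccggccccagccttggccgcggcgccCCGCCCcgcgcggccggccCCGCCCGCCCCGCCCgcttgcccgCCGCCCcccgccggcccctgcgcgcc

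The Kdm7a window held 56 CpG pairs, as many as any of the 27025 windows of all genes, and its GC content was 82%. Kmt2c had 48 CpG pairs, 91.6% GC and 12 matches to the SP letters, some of them overlapping. Ezh1 and Ezh2 had 14 and 23 CpG pairs and 1 match each to the NRF1 letters. The Ezh2 window also held 3 CCAAT matches, and that of Ezh1 held none. The median was 20.5 CpG pairs over the 26 windows and 6 over all genes, whether or not they passed the filter on low counts. At the other end, the windows used for Kdm4c and Setd5 held 0 CpG pairs, and that of Kdm4c was the first of 2 listed.

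Of the 26 windows, 17 (65.4%) held the SP letters, in 8 erasers and 9 writers, against 32.9% of all windows. The NRF1 letters were found in 4 windows (15.4%), those of the writers Ezh1, Ezh2, Ehmt1 and Suv39h1, against 3.86% of all windows. The ETS letters were in 3 windows (11.5%), those of Kdm7a, Dot1l and Setdb1, against 7.05%. CCAAT was in 8 (30.8%) against 34.5%, and TATAAA in none of the 26 against 13.0%. Single windows held the other letters searched: TGACGTCA, the cAMP response element, and AAGATGGCG, the YY1 letters, in Phf8 (3.85% for each, against 1.62% and 0.607% of all windows), and CACGTG, an E-box, in Ehmt2 (3.85% against 6.05%). The windows of all genes were not limited to genes that passed the filter on low counts, as all 26 genes here did. The part of expression in these contrasts was not tested. These matches describe letters in a window, and no binding was measured.

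In WT libraries the order of abundance, as CPM per kilobase of the longest annotated transcript, was led by Kdm1a, the LSD1 eraser of H3K4, at 5.46 ± 1.00 CPM per kb (SD, n = 3). The H3K27 writer Ezh1 followed at 4.52 ± 1.56, the H3K9 and H3K36 eraser Kdm4c at 4.49 ± 0.91, Kdm7a at 3.92 ± 1.57 and the H3K9 writer Ehmt2 at 3.62 ± 1.00 CPM per kb. Those 5 genes were above the median of all tested genes, 3.48 CPM per kb, and the other genes were below it. The least abundant were H3K4 writers: Kmt2a at 0.193 ± 0.017, Setd1b at 0.144 ± 0.068, Kmt2d at 0.138 ± 0.025 and Setd1a at 0.133 ± 0.041 CPM per kb. From the first to the last gene the level differed 41.2-fold on this scale. Neighbours in the order could not be told apart by their library values in 36 of 37 pairs; Kdm4b (0.476 ± 0.133) and Kdm2b (0.298 ± 0.017) were the pair without overlap. The order also depends on the transcript taken as the length: with the median annotated transcript the ranks had a Spearman rho of 0.846 with these ranks (38 genes, a description), and Ezh1 came first at 23.2 CPM per kb. On that scale Setd1b was last at 0.238 CPM per kb, the levels spanned 97.5-fold, and Kmt2d ranked 22 in place of 37.

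In KO-labelled libraries Kdm1a was again first on the same scale, at 3.89 ± 0.79 CPM per kb, followed by Ehmt2 at 3.00 ± 0.86 and Kmt2e at 2.43 ± 0.94 CPM per kb. Kdm7a had 0.762 ± 0.154 CPM per kb there, against 3.92 ± 1.57 in WT libraries (SD, n = 3 each).

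Kdm7a, a JmjC eraser of dimethylated H3K9 and H3K27, had the lowest log2 fold change of all 38 genes. Its level was 6.99, 5.99 and 8.88 CPM in the KO-labelled libraries and 53.9, 24.5 and 34.0 CPM in the WT libraries. The highest KO-labelled value was well under the lowest WT value. The log2 fold change was -2.36 (SE 0.32, edgeR adjusted p = 0.016). Without WT 1, its highest library, it was -2.01 (adjusted p = 0.122), and without KO 3 it was -2.55 (adjusted p = 0.072). Kdm7a made up 6.85%, 5.07% and 7.59% of the summed eraser CPM in KO-labelled libraries and 20.96%, 15.2% and 14.2% in WT libraries.

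The other erasers with a PHD finger beside the JmjC domain in this branch overlapped between the groups. Phf8, an X-linked eraser of H3K9, had 6.46, 8.12 and 9.50 CPM in KO-labelled libraries and 11.1, 7.03 and 16.5 CPM in WT libraries. Phf2, its relative, had 1.504, 2.30 and 2.76 CPM in KO-labelled libraries and 3.27, 1.98 and 3.77 CPM in WT libraries. For both genes WT 2 lay inside the KO-labelled range, and neither passed the test (log2 fold changes -0.52 and -0.46, edgeR adjusted p = 0.298 and 0.422). Within a library, Kdm7a was 0.610 ± 0.115 times as abundant per kb as Phf8 in KO-labelled libraries and 2.31 ± 0.94 times in WT libraries (SD, n = 3 each), with no overlap. The ratio of Phf8 to Phf2 was 3.25 ± 0.40 in KO-labelled libraries and 3.26 ± 0.46 in WT libraries.

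Among erasers of H3K9 and H3K36 of the Kdm4 family, Kdm4c was the one that fell. It had 8.05, 9.60 and 5.11 CPM in KO-labelled libraries and 20.9, 14.5 and 21.2 CPM in WT libraries (log2 fold change -1.31, SE 0.30, edgeR adjusted p = 0.026). The groups did not overlap. Kdm4a overlapped at 7.44 ± 2.19 CPM in KO-labelled libraries and 10.1 ± 2.6 CPM in WT libraries (SD, n = 3 each; -0.43, SE 0.32). Kdm4b, a scarce family member, had 1.41 ± 0.07 CPM in KO-labelled libraries and 2.18 ± 0.61 CPM in WT libraries (-0.61, SE 0.37), without overlap but also without passing the test. Differences between the 3 fold changes were not tested.

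Kdm3a, which removes mono- and dimethyl groups from H3K9, fell as well. Its level was 7.96, 7.30 and 3.98 CPM in KO-labelled libraries and 15.5, 11.8 and 18.5 CPM in WT libraries. All KO-labelled values were under all WT values, with KO 3 the lowest, and the log2 fold change was -1.24 (SE 0.32, edgeR adjusted p = 0.036). Its relatives had fold changes of the same sign that missed the threshold. Jmjd1c averaged 5.38 ± 1.79 CPM in KO-labelled libraries and 12.8 ± 5.4 CPM in WT libraries (SD, n = 3 each; log2 fold change -1.26, edgeR adjusted p = 0.0503). Kdm3b averaged 5.25 ± 0.53 CPM in KO-labelled libraries and 9.66 ± 3.01 CPM in WT libraries (-0.88, adjusted p = 0.085), and 24.6% of its exonic bases overlap Gm26538 on the opposite strand. Jmjd1c and Kdm1b stood on either side of the threshold, at 0.0503 and 0.043.

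Of the FAD-dependent erasers of H3K4, Kdm1b fell and Kdm1a did not pass the test. Kdm1b, known from oocytes for its part in imprinting, had 7.87, 8.45 and 5.11 CPM in KO-labelled libraries and 15.9, 12.5 and 15.9 CPM in WT libraries (log2 fold change -1.04, SE 0.28, edgeR adjusted p = 0.043). Kdm1a had 12.3, 13.9 and 9.19 CPM in KO-labelled libraries and 16.4, 13.6 and 19.7 CPM in WT libraries (-0.49, SE 0.27, adjusted p = 0.232). KO 2 and WT 2 were close for Kdm1a, whereas no value of Kdm1b overlapped. Their ratio per kb, Kdm1a over Kdm1b, was 2.75 ± 0.20 in KO-labelled libraries and 1.84 ± 0.17 in WT libraries, without overlap. That ratio is not adjusted for trends on transcript length or GC content. With offsets for both, described below, the log2 fold changes were close, at -0.58 (SE 0.23) for Kdm1a and -0.49 (SE 0.21) for Kdm1b, and neither passed. Kdm5a and Kdm5b, JmjC erasers of trimethylated H3K4, were lower without overlap and without passing. Kdm5a averaged 17.9 ± 3.8 CPM in KO-labelled libraries and 32.1 ± 9.5 CPM in WT libraries (-0.84, adjusted p = 0.078). Kdm5b averaged 3.80 ± 1.27 CPM in KO-labelled libraries and 7.94 ± 2.23 CPM in WT libraries (-1.06, adjusted p = 0.071). Their relative Kdm5c, in a companion list, overlapped between the groups (-0.62, adjusted p = 0.222).

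The remaining erasers overlapped between the groups. Kdm2a, an eraser of H3K36 that binds unmethylated CpG, averaged 12.6 ± 3.3 CPM in KO-labelled libraries and 19.4 ± 6.9 CPM in WT libraries (SD, n = 3 each; log2 fold change -0.62, SE 0.32). Its relative Kdm2b, the least abundant eraser per kb in WT libraries, had 1.06, 1.64 and 0.919 CPM in KO-labelled libraries and 1.47, 1.64 and 1.53 CPM in WT libraries (-0.34, SE 0.40). The Kdm2b values rest on 9 to 26 counts per library. Kdm6b, which erases trimethylated H3K27, had 4.25, 3.77 and 8.68 CPM in KO-labelled libraries and 4.74, 4.09 and 5.21 CPM in WT libraries (0.25, SE 0.36, edgeR adjusted p = 0.653). Its positive sign rested on KO 3: without that library the log2 fold change was -0.23, and with total-count scaling it was -0.05. Kdm8, a JmjC protein better known as an arginine hydroxylase, had 1.68, 0.984 and 1.33 CPM in KO-labelled libraries and 1.58, 1.77 and 0.449 CPM in WT libraries (0.03, SE 0.50), which is 5 to 28 counts per library, and its sign turned to -0.27 with total-count scaling.

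Among writers, Nsd2 of the H3K36 family had the lowest log2 fold change. Its level was 3.27, 3.77 and 2.76 CPM in KO-labelled libraries and 11.3, 5.05 and 8.88 CPM in WT libraries. No value overlapped, and WT 2 was the nearest to the KO-labelled libraries (-1.36, SE 0.35, edgeR adjusted p = 0.036). Nsd3, its relative, had 8.67, 11.9 and 11.4 CPM in KO-labelled libraries and 22.8, 13.9 and 25.3 CPM in WT libraries, also without overlap, and missed the threshold (-0.95, SE 0.29, adjusted p = 0.056). Nsd1 averaged 13.7 ± 0.4 CPM in KO-labelled libraries and 19.3 ± 6.0 CPM in WT libraries (SD, n = 3 each; -0.49). Setd2, the writer of trimethylated H3K36, averaged 3.79 ± 1.07 CPM in KO-labelled libraries and 6.33 ± 2.61 CPM in WT libraries (-0.74), and Ash1l averaged 6.93 ± 2.42 CPM in KO-labelled libraries and 9.69 ± 4.38 CPM in WT libraries (-0.49). For Nsd1, Setd2 and Ash1l the groups overlapped.

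Ezh2 and Ezh1 are the alternative catalytic subunits of PRC2, the complex that writes H3K27 methylation, and Ezh1 is known as the form of resting cells. Ezh2 had 2.92, 2.79 and 4.70 CPM in KO-labelled libraries and 8.68, 6.69 and 7.81 CPM in WT libraries (log2 fold change -1.16, SE 0.31, edgeR adjusted p = 0.043). Ezh1 had 8.76, 12.6 and 7.56 CPM in KO-labelled libraries and 18.8, 12.6 and 25.7 CPM in WT libraries (-0.97, SE 0.32, adjusted p = 0.071). Ezh2 was separated between the groups, whereas Ezh1 of KO 2 lay just above that of WT 2. Ezh1 was the more abundant per kb in all 6 libraries, by 2.02 ± 0.97 times in KO-labelled libraries and 1.62 ± 0.49 times in WT libraries, with overlap.

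Of the H3K4 writers, Setd7 fell and the COMPASS subunits did not pass the test. Setd7, a small monomethyltransferase that also modifies non-histone proteins, had 5.22, 8.45 and 5.82 CPM in KO-labelled libraries and 15.3, 10.1 and 21.2 CPM in WT libraries. Its groups were apart, and the log2 fold change was -1.25 (SE 0.33, edgeR adjusted p = 0.039). The catalytic subunits of the COMPASS complexes overlapped between the groups, with log2 fold changes near 0. Kmt2c and Kmt2d, which monomethylate H3K4 at enhancers, averaged 14.5 ± 3.3 and 2.54 ± 0.63 CPM in KO-labelled libraries and 15.5 ± 2.7 and 2.73 ± 0.49 CPM in WT libraries (SD, n = 3 each; -0.09 and -0.10). Kmt2a and Kmt2b, the menin-associated pair, had log2 fold changes of 0.03 (SE 0.35; -0.27 with total-count scaling) and 0.37 (SE 0.45). Kmt2b was at 3.10, 1.64 and 2.76 CPM in KO-labelled libraries and 1.86, 0.955 and 3.05 CPM in WT libraries, the highest fold change of the 38 genes and inside the spread of its libraries.

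Setd1a and Setd1b, writers of trimethylated H3K4 at promoters, had few counts, and neither passed the test. Setd1a had 0.973, 0.8203 and 0.408 CPM in KO-labelled libraries and 0.733, 0.682 and 1.17 CPM in WT libraries (-0.18, SE 0.49), from 4 to 13 counts per library. Of its exonic bases, 51.9% lie within Gm49388 on the same strand, so its reads are uncertain. Setd1b averaged 1.18 ± 0.75 CPM in KO-labelled libraries and 1.28 ± 0.60 CPM in WT libraries (SD, n = 3 each; -0.10, SE 0.54). Summed over Kmt2a, Kmt2b, Kmt2c, Kmt2d, Setd1a and Setd1b, the level was 21.9, 22.1 and 30.1 CPM in KO-labelled libraries and 27.5, 23.6 and 25.3 CPM in WT libraries, with overlap. This sum leaves out Setd7, the H3K4 writer that was called lower. Setd7 averaged 6.50 ± 1.72 CPM in KO-labelled libraries and 15.5 ± 5.5 CPM in WT libraries. The 4 erasers of H3K4 among the 38 genes were Kdm1a, Kdm1b, Kdm5a and Kdm5b. They summed to 36.7, 46.1 and 39.2 CPM in KO-labelled libraries and 83.7, 54.3 and 75.9 CPM in WT libraries, without overlap. Neither sum is adjusted for trends on transcript length or GC content. The median GC content was 46.0% for these 4 erasers and 57.0% for the 7 H3K4 writers, Setd7 included. With the length and GC offsets, described below, Kdm5a was at 0.16, Kdm1a at -0.58, Kdm1b at -0.49 and Kdm5b at -0.35.

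No H3K9 writer passed the test. Ehmt1 and Ehmt2 form the dimer that dimethylates H3K9 in euchromatin. Ehmt1 had 4.42, 6.15 and 5.72 CPM in KO-labelled libraries and 12.2, 6.89 and 11.8 CPM in WT libraries (log2 fold change -0.92, SE 0.31, edgeR adjusted p = 0.075). Ehmt2 had 8.49, 15.4 and 12.4 CPM in KO-labelled libraries and 15.5, 10.2 and 18.04 CPM in WT libraries (-0.27, SE 0.31, adjusted p = 0.561). Ehmt1 was separated between the groups and Ehmt2 was not. Within libraries, Ehmt1 per kb was 0.352, 0.270 and 0.313 of Ehmt2 in KO-labelled libraries and 0.534, 0.458 and 0.441 in WT libraries, without overlap. This ratio, too, is not adjusted for trends on transcript length or GC content. With offsets for both, described below, the log2 fold changes were -0.50 (SE 0.22) for Ehmt1 and -0.28 (SE 0.25) for Ehmt2, and neither passed.

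Setdb1, which trimethylates H3K9 at retroelements with TRIM28, averaged 3.58 ± 1.56 CPM in KO-labelled libraries and 7.60 ± 2.70 CPM in WT libraries (SD, n = 3 each; -1.07, edgeR adjusted p = 0.096). Suv39h1, the writer of H3K9 trimethylation in pericentric heterochromatin, had 7.16, 5.41 and 5.31 CPM in KO-labelled libraries and 4.68, 4.78 and 5.56 CPM in WT libraries (0.25, SE 0.28). WT 3 lay inside the KO-labelled range, and 14.6% of the exonic bases of Suv39h1 overlap Gm14820 on the opposite strand. Dot1l, the H3K79 writer without a SET domain, had 3.98, 4.43 and 6.84 CPM in KO-labelled libraries and 5.47, 2.87 and 6.37 CPM in WT libraries (0.05, SE 0.36); its sign changed without KO 3 (-0.23), without WT 2 (-0.22) and with total-count scaling (-0.22). Kmt2e and Setd5, SET proteins of disputed catalytic activity, averaged 17.8 ± 6.9 and 9.94 ± 2.75 CPM in KO-labelled libraries and 18.9 ± 3.4 and 14.9 ± 5.7 CPM in WT libraries (-0.09 and -0.58), with overlap.

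Within each library, erasers were set against writers, a ratio that does not depend on the scaling of libraries. Summed over the 17 erasers, the level was 102, 118 and 117 CPM in KO-labelled libraries and 257, 161 and 239 CPM in WT libraries, without overlap. Summed over the 21 writers, it was 117, 150 and 161 CPM in KO-labelled libraries and 238, 150 and 236 CPM in WT libraries, and WT 2 lay within the KO-labelled range. The ratio of erasers to writers was 0.869, 0.788 and 0.729 in KO-labelled libraries and 1.08, 1.07 and 1.01 in WT libraries. It was separated between the groups, also without Kdm7a, at 0.744 ± 0.068 in KO-labelled libraries and 0.876 ± 0.027 in WT libraries (SD, n = 3 each). Because the genes were chosen with these differences known, no test is given for the sums and ratios.

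**Figure D2:**
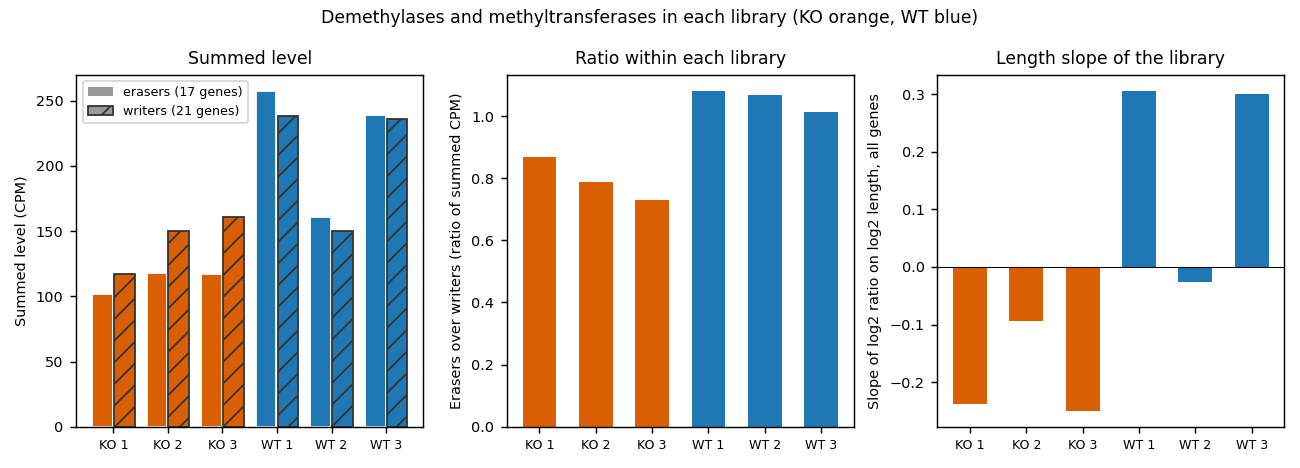
Summed CPM of 17 erasers (plain bars) and 21 writers (hatched bars), the ratio of the sums, and the slope of each gene's log2 ratio to its mean over libraries on log2 transcript length, one bar per library, KO-labelled libraries in orange and WT libraries in blue. The ratio is at most 0.869 in KO-labelled libraries and at least 1.01 in WT libraries, and the slope of WT 2 (-0.025) is the WT value nearest to the KO-labelled slopes.

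Transcript length and base composition moved with these differences. In KO-labelled libraries the slope of log2 ratio on log2 transcript length, over all genes with a length, was -0.238, -0.093 and -0.249, and in WT libraries it was 0.306, -0.025 and 0.300. WT 2, the WT library with the lowest summed level of erasers and writers, was thus also the WT library with the lowest slope. Writers and erasers are long: 34 of the 38 exceeded the median transcript of all tested genes, 3273 bases, and their own lengths ran from 2389 bases (Kdm8) to 19823 bases (Kmt2d). In the decile of the longest transcripts, 24.8% of all tested genes were called lower and the median log2 fold change was -0.78. That decile held 6 erasers, of which Kdm7a was called lower, and 14 writers, of which Nsd2 and Setd7 were called lower. The median log2 fold change there was -0.95 for the erasers and -0.30 for the writers.

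Set against the median of genes of like length, 12 of 17 erasers and 8 of 21 writers were below their own decile. The difference in log2 fold change from the decile median was -1.59 for Kdm7a, -1.36 for Ezh2, -1.12 for Kdm4c and -0.87 for Kdm3a. On the other side it was 1.14 for Kmt2b, 1.02 for Kdm6b, 0.83 for Dot1l and 0.81 for Kmt2a. Across the 38 genes Spearman's rho between log2 fold change and length was 0.04 (-0.35 for 17 erasers, 0.27 for 21 writers), against -0.58 over all 11863 tested genes with a length. With GC content rho was 0.69 across the 38 genes (0.84 for erasers, 0.50 for writers) and 0.39 over all. Genes share libraries and scaling, so these are descriptions without a p.

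Split at 45% and 55% GC, limits chosen after the data were seen, the low range held 8 of the genes: Kdm1b, Jmjd1c, Kdm4c, Kdm5a, Kdm7a, Setd2, Nsd2 and Ezh2. Of these, 5 were called lower, against 18.6% of all genes in the range. The longest decile held 5 of the 8, namely Jmjd1c, Kdm5a, Kdm7a, Setd2 and Nsd2. Of those only Kdm7a and Nsd2 were called lower, against 41.3% of all genes in both the range and that decile. The middle range held 21 genes, of which Kdm3a and Setd7 were called lower, against 4.77% of all genes in the range and 16.1% of those also in the longest decile, which held 10 of the 21, Setd7 among them. The high range held Kdm4b, Kdm6b, Phf2, Kmt2b, Kmt2d, Setd1a, Setd1b, Ehmt2 and Dot1l, none of which was called (0.246% of all genes), with log2 fold changes from -0.61 to 0.37.

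**Figure D3:**
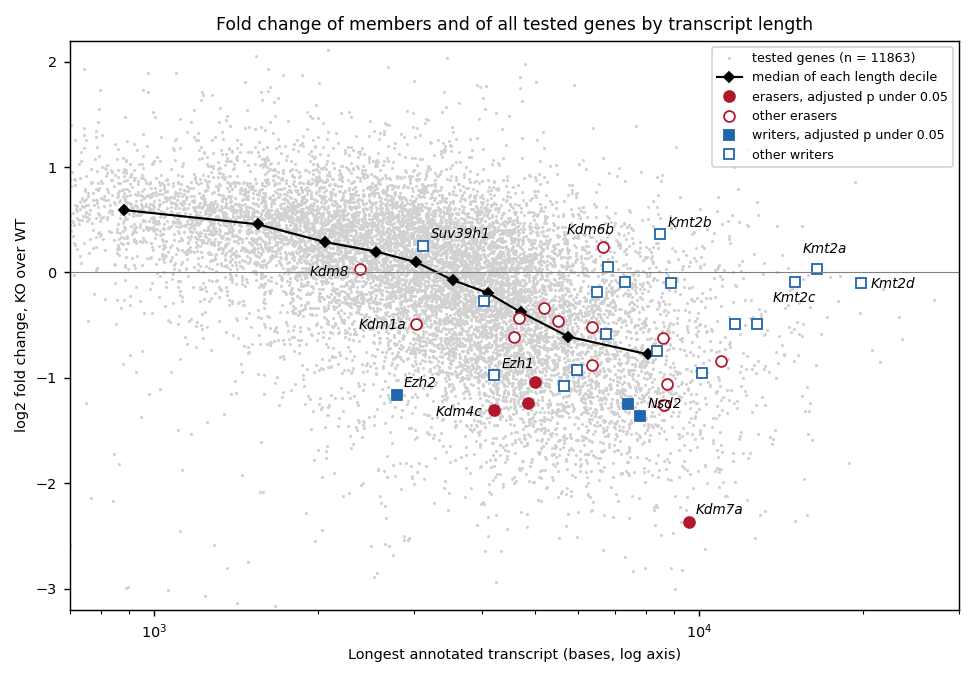
Log2 fold change, KO over WT, against the longest annotated transcript (log axis) for 11863 tested genes (grey; 406 lie outside the axes), with the median of each length decile in black, erasers as red circles and writers as blue squares, filled where the adjusted p was under 0.05. The decile medians run from 0.59 for the shortest genes to -0.78 for the longest, Kdm7a lies far below that line, and the H3K4 writers Kmt2a, Kmt2b, Kmt2c and Kmt2d lie above it.

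The comparison was repeated with offsets that take each library's smooth trend on length and GC out of the fold changes. None of the 38 genes then passed an adjusted p of 0.05 in edgeR, and 0.00829% of all tested genes did. At an unadjusted p under 0.05, 5 erasers and 4 writers were lower and none higher, against 11.0% of all tested genes called lower in this way. They were Kdm7a, Kdm4c, Kdm3a, Kdm1a and Kdm1b, and Ezh2, Ezh1, Setd7 and Ehmt1. At the looser adjusted p under 0.1, Kdm7a (log2 fold change -1.16, SE 0.27, edgeR adjusted p = 0.065) and Kdm4c (-0.85, SE 0.23, adjusted p = 0.081) were lower, where 3.94% of all tested genes were lower and 4.59% higher. Ezh2 stood at -0.999 (SE 0.32, adjusted p = 0.106) and Ezh1 at -0.80 (SE 0.26, adjusted p = 0.112), whereas Nsd2 stood at -0.35 (SE 0.25) and Jmjd1c at -0.31 (SE 0.34).

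With those offsets the sign was negative for 13 of 17 erasers and 9 of 21 writers, and for 47.4% of all tested genes. The median was -0.31 for erasers, 0.16 for writers and 0.03 for all tested genes. Kmt2b had 0.88 (SE 0.41), Kmt2e 0.63 (SE 0.28), Kmt2a 0.61 (SE 0.30) and Kmt2c 0.60 (SE 0.27), none of which passed. Among the 38 genes the offset log2 fold changes still rose with length. Spearman's rho was 0.54 (0.35 for erasers, 0.62 for writers), against -0.04 over all tested genes with a length. The result for writers hung on the transcript used as length: with offsets on the median annotated transcript in place of the longest, the median was -0.42 for writers and -0.56 for erasers, 30 of the 38 log2 fold changes were below 0 (46.1% of all tested genes), and again none of the 38 passed, where 1.18% of all tested genes were called lower. Kdm7a was at -1.11 (adjusted p = 0.063) and Kdm3a at -1.17 (adjusted p = 0.061) in that fit.

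**Figure D4:**
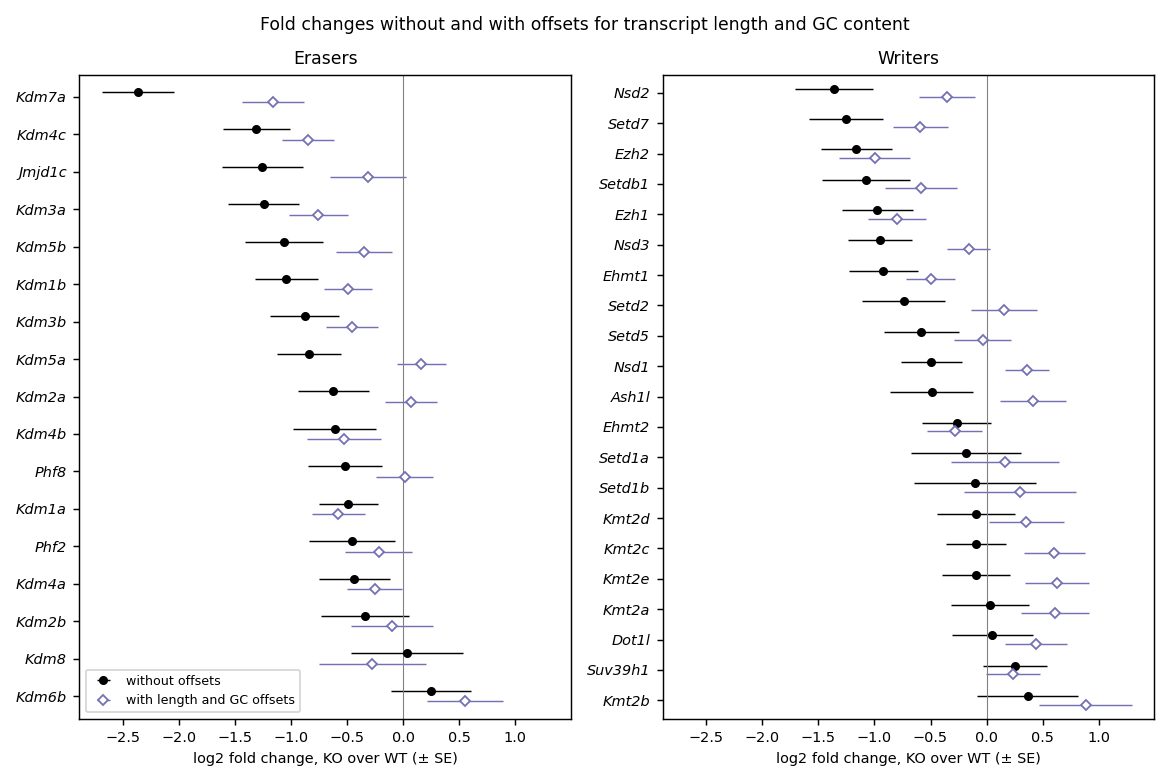
Log2 fold change, KO over WT, with its SE for each eraser (left) and writer (right), without offsets (black circles) and with the length and GC offsets (purple diamonds). Kdm7a is at -2.36 without and -1.16 with offsets, and Kmt2c, Kmt2d and Kmt2e cross from just below 0 to 0.60, 0.35 and 0.63.

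Partners and cofactor enzymes were followed as companion lists. Of 21 tested other erasers and writers, 2 fell, at a median log2 fold change of -0.26, where the median of all tested genes was 0.03 and 7.52% of them were called lower. Kdm6a, the X-linked eraser of H3K27 in the COMPASS complexes of Kmt2c and Kmt2d, had 3.98, 5.50 and 2.25 CPM in KO-labelled libraries and 14.3, 8.12 and 16.7 CPM in WT libraries (-1.73, SE 0.38, edgeR adjusted p = 0.023). Kmt5b, a writer of dimethylated H4K20, was at -1.59 (SE 0.28, adjusted p = 0.016). Kdm5d, an H3K4 eraser on the Y chromosome, was at -1.38 (SE 0.42, adjusted p = 0.059), and the labels do not give the sex of the pooled mice.

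Of 9 PRC2 partners, 3 fell and the median was -0.21. Suz12, the core subunit without which PRC2 is unstable, had 11.4, 6.73 and 3.27 CPM in KO-labelled libraries and 38.005, 22.04 and 26.6 CPM in WT libraries (-2.01, SE 0.40, edgeR adjusted p = 0.019). The accessory subunits Aebp2 and Mtf2 fell by 1.13 and 1.03 on the log2 scale (adjusted p = 0.037 and 0.046). With the writer Ezh2, 4 genes of this complex were thus called lower, where 7.52% of all tested genes were. None passed with the length and GC offsets, where Suz12 was at -1.46 (adjusted p = 0.062). Of the 9 partners, 7 had a negative log2 fold change and 2 a positive one. Rbbp4 was at 0.64 (adjusted p = 0.103), with all KO-labelled libraries above all WT libraries, and with the offsets at 1.10 (adjusted p = 0.062). Eed (-0.06) and Rbbp7 (-0.10) did not pass.

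Of 11 LSD1 and CoREST partners, 3 fell, where 7.52% of all tested genes were called lower, and the median was -0.59. Zmym2 was at -1.64, Phf21a, a reader of unmethylated H3K4, at -1.35 and Rcor1, the CoREST scaffold of Kdm1a, at -1.17 (edgeR adjusted p = 0.021, 0.047 and 0.047). With the length and GC offsets Zmym2 was at -0.64, Phf21a at -0.91 and Rcor1 at -0.66, and none passed. Of 8 partners of the H3K9 enzymes, Zfp644 fell (-1.18, adjusted p = 0.028), while Cbx1 (-0.65) and Atf7ip (-1.24) did not pass. Of 6 partners of Dot1l, Aff4 and Mllt3 fell (-1.57 and -1.82, adjusted p = 0.021 and 0.024), although Dot1l itself was at 0.05. With the offsets Aff4 was at -0.63 and Mllt3 at -0.93, and neither passed. The COMPASS partners, 13 in all, had a median of 0.02 and no call, with Pagr1a at 0.85 (adjusted p = 0.081), Wdr5 at 0.64 (0.094) and Psip1 at -0.80 (0.099).

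Enzymes that supply the cofactors gave no call. The 10 tested genes of the S-adenosylmethionine cycle had a median of 0.02; Mat2a, which makes S-adenosylmethionine outside the liver, had 296, 335 and 347 CPM in KO-labelled libraries and 236, 265 and 250 CPM in WT libraries (0.38, SE 0.21, edgeR adjusted p = 0.241), without overlap. Ahcyl2 (-0.82, adjusted p = 0.058) and Mtr (-0.67) did not pass either. The 12 genes of 2-oxoglutarate and FAD supply had a median of 0.03, with Idh1 at -0.49 and Idh3g at 0.41, neither of which passed. In the acetylation machinery, 1 of 10 acetyltransferases, Kat2b (-1.22, adjusted p = 0.027), and 1 of 11 deacetylases, Hdac9 (-1.99, adjusted p = 0.034), fell, where 7.52% of all tested genes did. Next by p were Kat6a (-0.96) and Crebbp (0.72), and Sirt1 (-1.08) and Hdac3 (0.47), none of which passed. No gene of any companion list was called higher. With the length and GC offsets none was called in either direction.

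**Figure D5:**
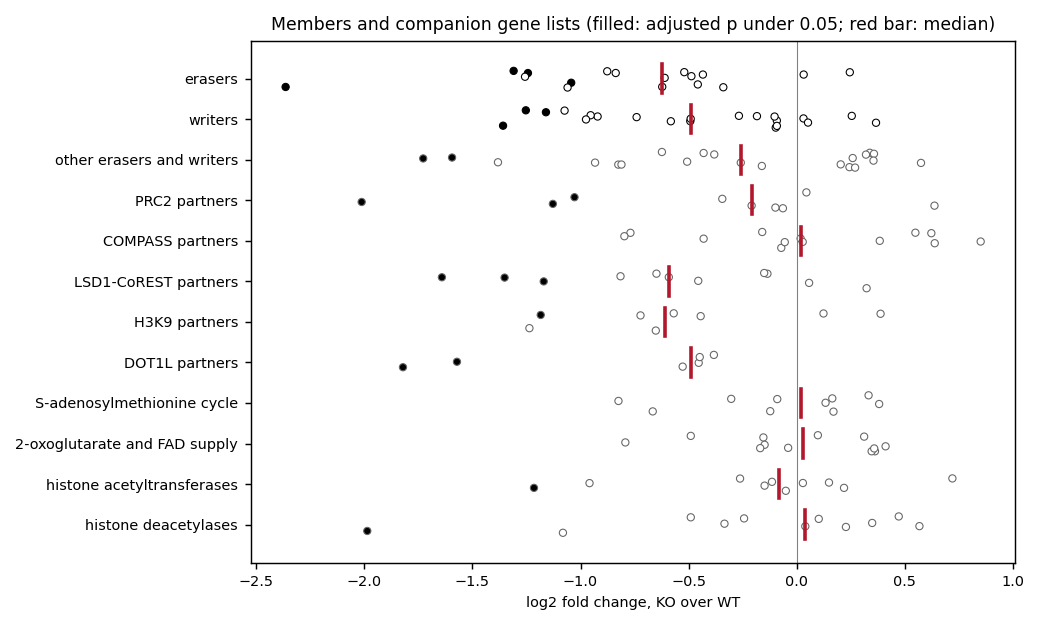
Log2 fold change, KO over WT, of each tested gene of the erasers, the writers and 10 companion lists, filled where the adjusted p was under 0.05, with the median of each list as a red bar. Filled points lie at negative values in 9 of the 12 rows, and the rows of COMPASS partners, the S-adenosylmethionine cycle and 2-oxoglutarate and FAD supply hold none.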

How the data were processed

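RNA was sequenced from 6 pools of mature brown fat. The authors deposited raw counts, whole numbers of reads per Ensembl gene, per library. The submitters' processing notes name STAR 2.5.4b and mm9. How reads were counted, with which strand setting and annotation, is not given in the sources used here, so reads of overlapping genes cannot be told apart. Each library was 1 pool. The spread behind the p-values therefore holds differences between pools and technical spread together, and these cannot be told apart. Spread between single mice was not measured.

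Symbols, transcript lengths and GC content came by gene identifier from GENCODE M21 on GRCm38 (32897 of 37620 identifiers; the rest held 0.178% of counts), and promoter windows from RefSeq on GRCm38.p6. No 2 libraries held identical values. In R 4.3.3, edgeR 4.0.16 filtered genes (filterByExpr, minimum count 10, minimum total 15), scaled by TMM and ran the robust quasi-likelihood F test (two-sided), with Benjamini-Hochberg adjustment over 12068 genes, threshold 0.05. SE was derived from F. Offsets were smooth terms (mgcv 1.9.3, basis 6, prior count 2) per library on log2 length and GC.

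The 38 genes, the companion lists, the lists of markers and the rules for naming genes were chosen with earlier results of these data known. Library values were given for the 4 erasers and 4 writers with the smallest p, members called, the 3 highest positive fold changes per class, the most and least abundant, and paralog pairs; companion lists gave the 3 smallest p, of which 1 gene is not reported here. Alternatives were RLE or total-count scaling, DESeq2 1.42.0, limma-voom (limma 3.58.1), no filter on low counts, leave-one-out fits, a replicate block, no mitochondrial genome genes, offsets, and, added after the data were seen, offsets on length or GC alone. The fits were tested on simulated counts.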

Additional observations from a re-analysis of the deposited data

How the results depend on the processing

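Counts per library and the length trend limit these results: the scarcest writer, Setd1a, had 4 to 13 counts per library, and leaving out WT 1 or KO 3 ended every call among the 38 genes. Against 908 genes lower (7.52%) and 197 higher, with 4 erasers and 3 writers lower, total-count scaling gave 1389 genes lower (11.5%) and 29 higher, with 8 erasers and 6 writers lower. DESeq2 gave 1350 genes lower (11.5%) and 493 higher, with 7 erasers and 5 writers lower, and limma-voom 619 genes lower (5.13%) and 113 higher, with 3 erasers and 1 writer lower. With length and GC offsets the counts were 0 lower and 1 higher, with length alone 4 and 2, with the median transcript 142 and 81, and with GC alone 381 lower. Erasers lower numbered 0, 0, 0 and 1 under these offsets, and writers lower 0 under each. At an unadjusted p under 0.05, edgeR with the first offsets still had 9 of the 38 genes lower. The eraser median was -0.31 with length and GC offsets and -0.22 with length alone, and the writer median reversed to 0.16 and 0.30. Leaving out 1 library gave 0 to 1383 genes lower, 0 to 688 higher, 0 to 7 erasers and 0 to 7 writers lower, eraser medians of -0.86 to -0.40, writer medians of -0.70 to -0.30, and summed KO over WT ratios of 0.526 to 0.646 for all 38 genes, 0.453 to 0.560 for erasers and 0.602 to 0.748 for writers. The number of members higher was 0 under every setting tried. The causes were not tested.

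Of 645 log2 fold changes of the 38 genes under 17 alternatives, 497 kept their direction and side of the threshold, 58 lost the call, 24 gained one and 66 changed sign, each sign change in genes that were not called. With length and GC offsets the changed signs were Kdm2a 0.069, Kdm5a 0.16, Kdm8 -0.27, Phf8 0.015, Kmt2c 0.60, Kmt2d 0.35, Kmt2e 0.63, Setd1a 0.16, Setd1b 0.30, Setd2 0.16, Nsd1 0.36 and Ash1l 0.41. With length alone they were Kdm2a 0.17, Kdm2b 0.10, Kdm5a 0.019, Kdm8 -0.12, Phf2 0.088, Phf8 0.14, Kmt2c 0.70, Kmt2d 0.70, Kmt2e 0.61, Setd1a 0.44, Setd1b 0.67, Setd2 0.059, Setd5 0.11, Ehmt2 0.011, Nsd1 0.39 and Ash1l 0.39. With the median transcript they were Kdm8 -0.17, Kmt2b -0.094, Kmt2c 0.53, Kmt2e 0.15, Setd1b 0.15 and Ash1l 0.41, and with GC alone Kdm6b -0.10, Kdm8 -0.15, Kmt2a -0.0089, Kmt2c 0.045, Kmt2e 0.17 and Dot1l -0.24. Total-count scaling, which moved the median of all tested genes to -0.23, gave Kdm6b -0.054, Kdm8 -0.27, Kmt2a -0.27 and Dot1l -0.22. With no filter on low counts, Kdm8 was -0.046, Kmt2a -0.026 and Dot1l -0.0034. Without mitochondrial genome genes Kdm8 was -0.0030, and with limma-voom Kmt2a was -0.031. Leaving out 1 library gave -0.23 to 0.24 for Dot1l, -0.23 to 0.46 for Kdm6b, -0.36 to 0.32 for Kdm8, -0.33 to 0.20 for Kmt2a, -0.31 to 0.019 for Kmt2c, -0.32 to 0.049 for Kmt2d, -0.43 to 0.15 for Kmt2e, -0.41 to 0.071 for Setd1a and -0.63 to 0.30 for Setd1b. Setd1a had no DESeq2 value.

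Replicate numbers are shared by the groups, but deviations from the group means correlated at 0.145, -0.534 and 0.032 between same-numbered libraries, and the labels do not say that a number marks a pair. With the replicate number as a block, 7 of the 38 genes were lower, 6 of them among the 7 without the block; Kdm1b left and Jmjd1c entered. Over all genes 976 were lower and 223 higher, and the block turned Kmt2a to -0.019.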
